A study of Homo sapiens with 26 samples.

Results

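The comparison described here sets 3 arrays of HCT116 cells labelled p53 knockout (KO) against 3 arrays of HCT116 cells labelled wild type (WT), all exposed to 2 nM leptomycin B for 16 h. These 6 arrays were chosen by their titles, out of 26 in the study. HCT116 is a human colon carcinoma line, and leptomycin B covalently blocks XPO1 (also called CRM1), the receptor that carries many proteins out of the nucleus. The study measured total RNA of the isogenic lines, with no drug or with 2 or 20 nM of it, on one-colour Illumina expression arrays. The labels name no other allele and no vehicle, and do not say how p53 was disrupted or whether the knockout line is 1 clone. Arrays set beside these 6 are the 8 untreated arrays on the same slides (replicates 7 to 10 of each label) and the 6 arrays at 20 nM. Untreated replicates 4 to 6 of each label, on other slides, enter through a model of all 26 arrays and where they are named.

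p53 is a transcription factor that is kept scarce in unstressed cells by the ubiquitin ligase MDM2 and by export from the nucleus through XPO1. When it accumulates it binds and activates genes of cell cycle arrest, apoptosis, DNA repair and metabolism, MDM2 among them, so that its targets read out whether a cell holds working p53. Through its target CDKN1A (p21) it also represses cell cycle genes, many of which carry a CHR element bound by the DREAM and MMB complexes in their promoters.

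By its targets, the arm labelled KO looked p53-functional at 2 nM and the arm labelled WT did not, against both labels. CDKN1A, the cyclin-dependent kinase inhibitor on chromosome 6, read 21889.7, 19727 and 21449 in the KO-labelled arrays and 1311, 1246 and 1198 in the WT-labelled arrays, in linear intensity units. Every KO-labelled array lay above every WT-labelled array, a difference of 4.07 ± 0.071 on the log2 scale (± SE, limma, Benjamini-Hochberg adjusted p = 1.1e-08). GDF15, a secreted cytokine of the TGF-beta superfamily on chromosome 19, read 4598, 4800.3 and 4244 against 186, 146 and 163. MDM2, the p53 ubiquitin ligase on chromosome 12, read 93.8, 92.1 and 86.2 against 16.1, 12.4 and 16.7. Neither gene's arms overlapped, and the log2 differences were 4.79 ± 0.10 (limma adjusted p = 2.96e-08) and 2.60 ± 0.12 (limma adjusted p = 8.12e-07). The RNA of the disrupted gene itself was not analysed here, and genotype is read from targets alone. Each arm is therefore named by its label, and every difference is the KO-labelled minus the WT-labelled arm.

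Values are log2 intensities with readings under 10 set to 10, the floor, so the change of a dim gene is understated. A gene was tested if its probe lay above 10 on at least 3 of the 6 arrays, which 9713 genes did, and was called at an adjusted p under 0.05. Arrays of one arm correlated at 0.9966 to 0.9981 over the 9713 genes tested and arrays of different arms at 0.9645 to 0.9677. The median SD of a gene's log2 values was 0.0988 among KO-labelled and 0.0819 among WT-labelled arrays. By limma 5826 genes (60.0%) were called, 2817 (29.0%) higher and 3009 (31.0%) lower in the KO-labelled arm. At least 2-fold apart were 933 (9.61%), 474 (4.88%) higher and 459 (4.73%) lower. By the slide identifiers in the labels, the 3 WT-labelled arrays lay on 1 slide and the 3 KO-labelled arrays on another, so slide and label cannot be told apart in these 6 arrays. Calls numbered 3663 where the spread was taken from all 26 arrays, and 1788 with slide as a random block. The labels do not say whether replicates were separate cultures, so the p-values cover the spread between these arrays, which could be technical. Where bulk RNA differs, fewer cells of one type and less RNA per cell cannot be told apart.

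Markers of intestine and epithelium, the tissue of origin, were present in part: 8 of 18 with a probe lay above 10 on all 6 arrays. Among them was the keratin KRT8 at 6436, 6507 and 6241 in the KO-labelled and 4654, 4726 and 5010.1 in the WT-labelled arm. The remaining markers of this list included 8 that were above 10 on none: VIL1, CDX1, CEACAM5, CEACAM6, TFF3, LGALS4, CLDN4 and MUC13. The summed intensity of all 18 was 33100 to 34950 in the KO-labelled and 27130 to 28660 in the WT-labelled arrays. Of 11 fibroblast markers 9 were above 10 on no array (sums 41.74 to 54.35 and 27.75 to 40.28), and of 15 blood and endothelial markers 10 were (sums 138.7 to 157.4 and 295.1 to 327.6). HBA1, an alpha-globin gene, held most of the last gap at 53.2, 57.4 and 53.4 against 209.8, 207 and 191, and fell by 1.89 ± 0.069 on the log2 scale (limma adjusted p = 3.56e-07). The part of these markers in the results below was not tested.

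Across 6 lists of established p53 targets, 126 of 133 genes had a probe and 113 passed the filter on dim genes. The other 13 lay at or below the floor on more than 3 of the arrays, TNFAIP8, EDA2R and POLK among them. Higher in the KO-labelled arm were 99 of the 113 (background 29.0%), 4 were lower (background 31.0%) and 10 were not called. At least 2-fold higher were 74 (background 4.88%), and none was as much lower. The median difference was 1.52 on the log2 scale, beside -0.0105 over all 9713 genes. Of the 113, 11 had every array of one arm at the floor and passed the filter only through the other arm. Among the 102 others, 89 were higher and 4 lower, with a median of 1.49. Arms did not overlap for 101 targets higher and 4 lower in the KO-labelled arm, beside 32.2% and 34.1% of all genes tested (66.3% in either direction). With slide as a random block in the 26-array model, 75 targets were called higher and 0 lower, beside 868 higher and 920 lower of all 9713 genes.

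**Figure D1:**
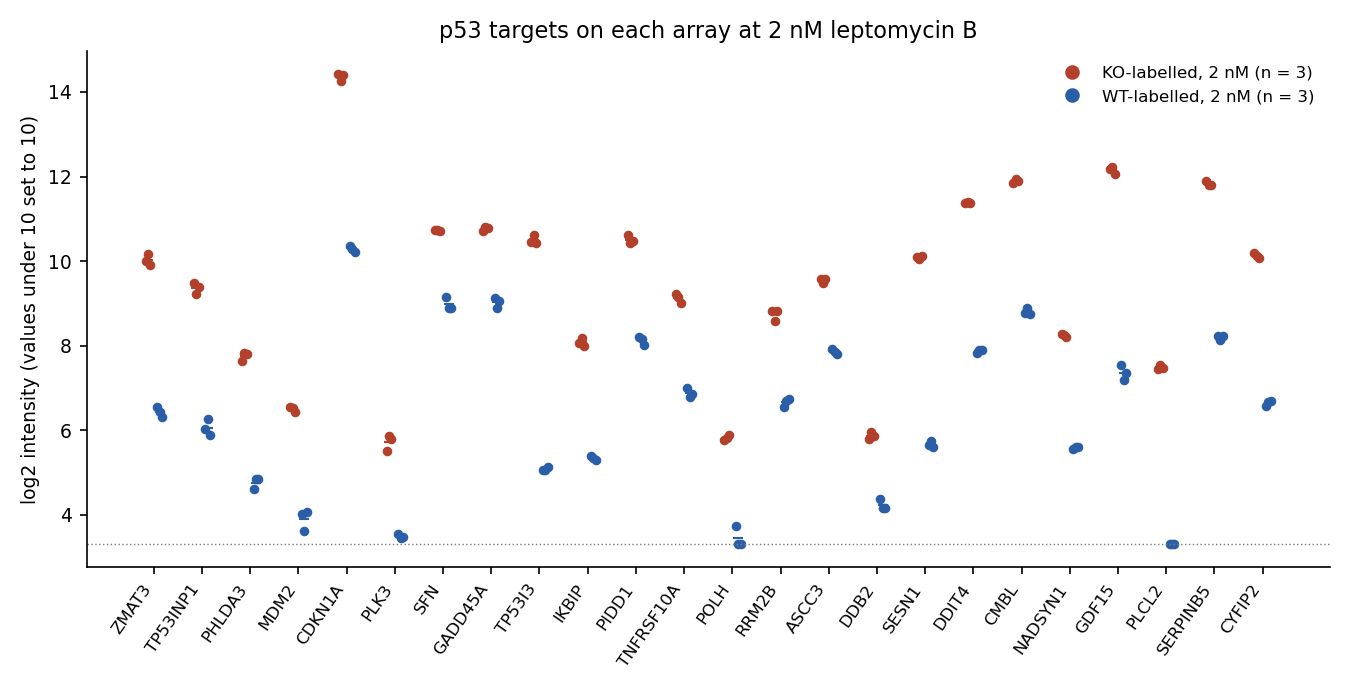
Log2 intensity (values under 10 set to 10, dotted line) on each of the 6 arrays at 2 nM, ordered by role, of MDM2, CDKN1A, GDF15 and up to 4 called members of each p53 list with the largest difference, so that members that fell (PLK2, BTG3, PERP, PTP4A1) or were not called are not drawn. Red points are the 3 KO-labelled and blue points the 3 WT-labelled arrays, with a short line at each arm's mean. For each of these genes, picked for its size, all 3 KO-labelled arrays lie above all 3 WT-labelled arrays, as for CDKN1A with a difference of 4.07.

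Feedback regulators of p53 were higher in 7 of 9 tested (77.8%, beside 29.0% of all genes tested) and lower in none (31.0% of all genes), with a median of 1.11. The same 2 shares of all genes stand behind the counts of each list that follows. ZMAT3, an RNA-binding zinc finger protein, read 1018, 1151 and 955 against 94.5, 86.9 and 79.3. TP53INP1, a stress-induced partner of p53 in apoptosis and autophagy, read 712, 594 and 676 against 65.4, 77.1 and 59.7. PHLDA3, which restrains AKT signalling, read 198, 226 and 224 against 24.3, 28.8 and 28.9. None of the 3 had overlapping arms, and they rose by 3.58 ± 0.10, 3.30 ± 0.11 and 2.99 ± 0.092 on the log2 scale (limma adjusted p = 8.88e-08, 2.18e-07 and 1.78e-07). The members not called were RCHY1 and COP1, both ubiquitin ligases of p53, at 0.22 and 0.16 (named after their values were seen).

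Targets that hold the cell cycle were higher in 8 of 12 (66.7%, the lowest share of the 6 lists) and lower in 2 (16.7%), with a median of 0.60. PLK3, a stress-activated polo-like kinase, read 45.9, 57.9 and 55.6 in the KO-labelled arm and 11.7, 11.1 and 11.2, close to the floor, in the WT-labelled arm. SFN, the 14-3-3 sigma protein that holds cyclin B complexes in the cytoplasm, read 1713, 1716 and 1666 against 569.8, 478 and 473. GADD45A, a growth arrest protein, read 1689, 1779.6 and 1777 against 564, 476 and 529. The differences were 2.22 ± 0.094, 1.75 ± 0.084 and 1.74 ± 0.078 on the log2 scale (limma adjusted p = 6.49e-07, 1.23e-06 and 8.31e-07), and the arms of all 3 stood apart. GADD45A was no longer called with slide as a random block. Not called were E2F7 and PRDM1, also named after their values were seen. PRDM1 was at 0.24, but its other, dimmer probe gave 1.58 (limma adjusted p = 4.87e-06). The 2 members that ran the other way, named here after their values were seen, were PLK2 and BTG3. PLK2, another polo-like kinase, read 58.3, 53.9 and 38.99 against 70.9, 76.01 and 66.7 and fell by 0.52 ± 0.14 (limma adjusted p = 0.0147). BTG3, an antiproliferative factor, read 3832, 3764 and 3903 against 4673, 4168 and 4348 and fell by 0.20 ± 0.067 (limma adjusted p = 0.0339).

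Among pro-apoptotic targets 16 of 19 were higher (84.2%) and 1 lower (5.26%), with a median of 1.05. TP53I3 (PIG3), a quinone oxidoreductase linked to reactive oxygen, read 1403, 1584 and 1383 against 33.3, 33.5 and 35.3. Its arms were 5.42 ± 0.074 apart on the log2 scale (limma adjusted p = 5.87e-09), the widest gap in the lists, although a second probe of the gene gave 1.56. IKBIP, an interactor of IKK-beta, read 269.6, 292 and 255 against 42.2, 40.7 and 39.5. PIDD1, the scaffold of the caspase-2 activating complex, read 1576, 1367 and 1413 against 296, 284 and 260. TNFRSF10A, a death receptor for TRAIL, read 600.4, 568 and 512 against 129, 110.4 and 116. These 3 rose by 2.74 ± 0.072, 2.37 ± 0.082 and 2.24 ± 0.088 (limma adjusted p = 8.31e-08, 2.61e-07 and 4.79e-07) with no overlap of arms. PMAIP1 (NOXA), a BH3-only activator of apoptosis, and TNFRSF10C, a decoy receptor, were not called, at 0.36 and 0.21 (limma adjusted p = 0.0579 and 0.118), and are named after their values were seen. The member that fell was PERP, a desmosome-associated apoptosis effector, at 931, 839.9 and 977 against 1612, 1551 and 1545. PERP fell by 0.78 ± 0.074 (limma adjusted p = 4.94e-05) and is named after its value was seen.

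All 5 targets of DNA repair tested were higher, with a median of 1.69. POLH, the translesion DNA polymerase eta, read 55.1, 56.9 and 59.0 in the KO-labelled arm and 13.3, 9.09 and 9.27 in the WT-labelled arm, where 2 arrays were under the floor. RRM2B, the p53-inducible small subunit of ribonucleotide reductase, read 456, 385 and 453 against 93.6, 104 and 107. ASCC3, a helicase of alkylation repair with other probes at 0.72 and 1.05, read 758, 720.5 and 760.1 against 242, 232 and 222, and DDB2, a damage sensor of nucleotide excision repair, read 55.4, 62.5 and 58.1 against 20.9, 17.8 and 17.9. All 4 arms stood apart, by 2.37 ± 0.12, 2.08 ± 0.09, 1.69 ± 0.064 and 1.64 ± 0.086 on the log2 scale, with limma adjusted p-values from 4.4e-07 (ASCC3) to 1.86e-06 (DDB2).

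Targets in metabolism and in the restraint of mTORC1 were higher in 16 of 16, 15 of them at least 2-fold, with a median of 2.03. SESN1, a sestrin that restrains mTORC1 through the GATOR complexes, read 1097, 1062 and 1107 against 50.6, 53.5 and 48.4. DDIT4 (REDD1), which restrains mTORC1 through TSC2, read 2634, 2708 and 2662 against 229, 237 and 239.9. CMBL, a cytosolic hydrolase, read 3683, 3959 and 3800.4 against 441, 476 and 433. NADSYN1, which completes NAD synthesis, read 313, 303 and 295 against 46.8, 48.9 and 48.7. For each the KO-labelled arrays were all higher, by 4.42 ± 0.065, 3.50 ± 0.059, 3.08 ± 0.067 and 2.66 ± 0.061 on the log2 scale, with limma adjusted p-values from 5.87e-09 (SESN1) to 4.23e-08 (NADSYN1). GM2A, a lysosomal lipid transfer protein, was the smallest at 0.25.

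In the last and largest list, of secreted, surface and other targets, 47 of 52 were higher (90.4%) and 1 lower (1.92%), with a median of 1.40. Behind GDF15, PLCL2, a catalytically inactive phospholipase C relative, read 174, 187 and 177 in the KO-labelled arm, while the WT-labelled arrays were all under the floor at 3.45, 2.77 and 2.99. PLCL2 was thus at least 17.9-fold higher, with arm means of 179 and 3.07 (limma adjusted p = 5.87e-09). SERPINB5, the serpin maspin, read 3822, 3591 and 3545 against 302, 282 and 298, and CYFIP2, a subunit of the WAVE complex, read 1179, 1114 and 1081 against 94.9, 102 and 104. In both, every KO-labelled array was higher, and they rose by 3.63 ± 0.065 and 3.49 ± 0.068 (limma adjusted p = 1.19e-08 and 2.07e-08). PTP4A1, a phosphatase named after its value was seen, ran the other way at 121, 109 and 127 against 173, 222 and 203, and fell by 0.73 ± 0.10 (limma adjusted p = 0.000446).

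Genes of G2 and mitosis ran opposite to the p53 targets: 41 of 41 tested were lower in the KO-labelled arm (background 31.0%), 38 of them at least 2-fold (background 4.73%), with a median of -1.99. Of the 41, 1 had an arm wholly at the floor, and the other 40 were all lower. CENPA, the centromeric histone H3 variant, read 32.6, 30.3 and 35.3 in the KO-labelled arm and 356, 350 and 329 in the WT-labelled arm. NEK2, a kinase of centrosome separation, read 30.7, 25.9 and 29.1 against 217, 202 and 183. BUB1B, a kinase-like protein of the spindle checkpoint, read 38.3, 36.7 and 34.03 against 245, 261 and 252, and BUB1, the checkpoint kinase, read 112, 112 and 138 against 774, 774 and 723. Every KO-labelled array was below every WT-labelled one for these genes, which fell by 3.40 ± 0.076, 2.81 ± 0.092, 2.80 ± 0.07 and 2.66 ± 0.093 on the log2 scale (limma adjusted p = 4.13e-08, 2.07e-07, 6.59e-08 and 2.85e-07). BUB3, a checkpoint adaptor, had the smallest change of the probes that stood for the genes, at -0.40, but its second probe gave -1.49 (limma adjusted p = 1.18e-06). Outside the list, 3 mitotic genes were among the 10 largest falls: CDCA3, a factor of mitotic entry, HJURP, the chaperone of CENPA, and DEPDC1. They fell by 3.15 ± 0.071, 2.90 ± 0.062 and 2.70 ± 0.10 (limma adjusted p = 4.2e-08, 3.33e-08 and 2.97e-07).

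The promoters of 6 of these G2/M genes are shown because the CHR element of the list lies within them. Each run holds 70 bases before and 20 bases after the start of the gene, from RefSeq on GRCh38.p14, read 5′ to 3′ on the gene's strand. Capitals mark the CHR motif TTTGAA or TTCGAA.
CENPA (chr2:26785986-26786075, plus strand): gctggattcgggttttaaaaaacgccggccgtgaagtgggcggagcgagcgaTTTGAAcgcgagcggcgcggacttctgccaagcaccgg
BUB1B (chr15:40160999-40161088, plus strand): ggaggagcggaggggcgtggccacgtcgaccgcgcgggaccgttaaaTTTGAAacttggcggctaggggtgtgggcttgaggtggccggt
BUB1 (chr2:110678044-110678133, minus strand): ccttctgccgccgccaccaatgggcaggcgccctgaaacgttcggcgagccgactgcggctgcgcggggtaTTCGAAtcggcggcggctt
PLK1 (chr16:23678819-23678908, plus strand): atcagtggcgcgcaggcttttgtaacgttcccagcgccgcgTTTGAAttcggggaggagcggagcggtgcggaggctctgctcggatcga
CCNB2 (chr15:59105076-59105165, plus strand): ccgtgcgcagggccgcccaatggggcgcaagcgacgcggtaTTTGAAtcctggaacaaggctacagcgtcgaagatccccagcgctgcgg
HMMR (chr5:163460562-163460651, plus strand): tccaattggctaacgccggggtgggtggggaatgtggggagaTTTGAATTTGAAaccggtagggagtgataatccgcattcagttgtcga
In CENPA the motif spans bases -18 to -13 and in BUB1B bases -23 to -18, counted from the start of the gene. BUB1 holds it just after the start, at bases 2 to 7, and HMMR, a spindle protein, holds the motif in tandem. PLK1, the polo-like kinase of mitosis, and CCNB2, cyclin B2, hold it at bases -29 to -24. These last 3 fell by 1.92 (HMMR), 2.05 (PLK1) and 1.92 (CCNB2) on the log2 scale at 2 nM.

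In windows of 250 bases before to 50 after the start, searched on both strands, the CHR motif was found in 22 of 33 G2/M genes with a promoter sequence (66.7%). It was in 11.6% of the 8021 genes tested with a promoter and in 16.6% of all 27305 promoters. CCAAT, searched alike, with an edge base that the motifs may share, was in 28 of 33 (84.8%) beside 37.7% of genes tested. Both stood together in 21 of 33 (63.6%) beside 5.02%. The 22 G2/M genes holding the CHR motif had a median difference of -2.0 and the 11 without it -2.09. G1/S genes held it in 2 of 37 (5.41%). The p53 half-site was in 7 of 96 p53 targets with a promoter (7.29%), near the 5.02% of genes tested and the 6.54% of all promoters. A match is a description of letters and not a bound site.

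Genes of G1/S and DNA replication were also mostly lower, 36 of 44 tested (81.8%, beside 31.0% of all genes), with 4 higher (9.09%, beside 29.0%) and a median of -0.94. UHRF1, which maintains DNA methylation at replication forks, read 496, 495 and 634 against 2191, 2308 and 2165. CCNE2, cyclin E2, read 182, 143 and 161 against 642, 646 and 668, and MCM10, a replication initiation factor, read 67.5, 75.2 and 65.4 against 278, 282 and 248. All KO-labelled arrays were lower, and the genes fell by 2.05 ± 0.10, 2.02 ± 0.092 and 1.96 ± 0.083 on the log2 scale (limma adjusted p = 1.59e-06, 9.54e-07 and 6.34e-07). The 4 higher members, named after their values were seen, were CCND1, GINS4, TYMS and PCNA at 0.34, 0.31, 0.24 and 0.24. PCNA, the replication clamp, had probes that disagreed in sign.

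Replication-dependent histone genes were lower in 14 of 21 tested (66.7%, beside 31.0% of all genes) and higher in 1 (4.76%, beside 29.0%), with a median of -0.44. H2AC6 read 90.9, 94.8 and 95.8 against 206, 199 and 183, H2BC21 read 54.04, 61.6 and 65.3 against 115, 115 and 111, and H2AC18 read 529, 589.9 and 594 against 1030.3, 992 and 844. These core histone genes fell by 1.06 ± 0.069, 0.92 ± 0.082 and 0.74 ± 0.093 without overlap (limma adjusted p = 6.45e-06, 3.43e-05 and 0.000236), and H2AC18 was not called in the 26-array model. Histone genes are near-identical copies, so a probe may read more than 1 of them. With 1 gene set aside that had an arm wholly at the floor, 13 of 20 were lower and 1 higher.

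**Figure D2:**
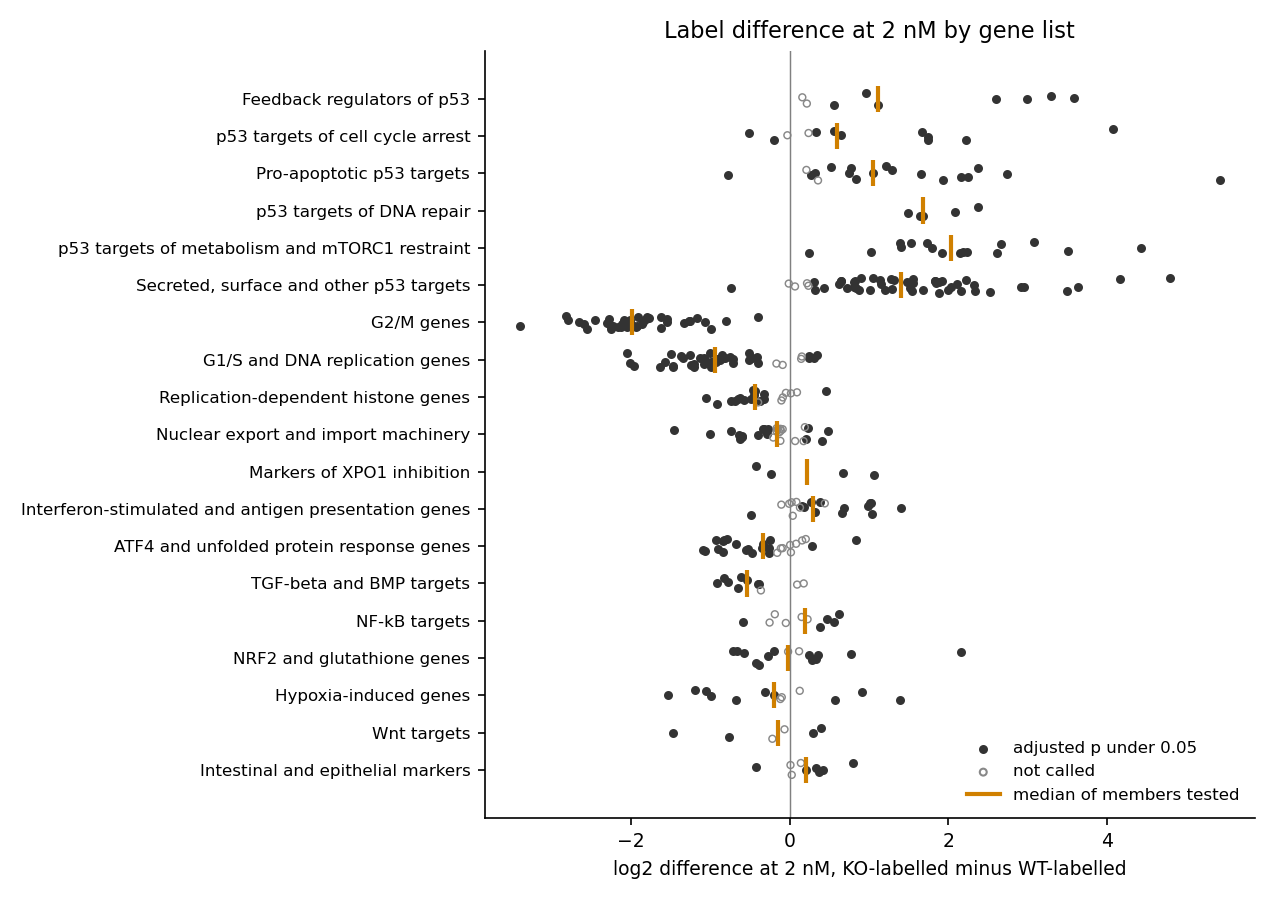
Log2 difference at 2 nM (KO-labelled minus WT-labelled) of each gene tested, by list. Filled points had an adjusted p under 0.05, open points were not called, and orange lines are list medians. The p53 lists lie mostly to the right of 0, with medians from 0.60 to 2.03, and the G2/M list lies wholly to the left, with a median of -1.99.

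Beyond the lists, ACTA2, smooth muscle actin, had the widest fitted gap of all called genes, at 1345, 1265 and 1227 in the KO-labelled and 29.4, 27.6 and 32.2 in the WT-labelled arm. It rose by 5.43 ± 0.078 on the log2 scale (limma adjusted p = 5.87e-09). SLC1A3, a glutamate transporter, read 267, 276 and 257 against 8.15, 11.1 and 8.34, with 2 WT-labelled arrays under the floor, and MKX, a homeobox factor of tendon, read 616, 585 and 583 against 27.2, 33.6 and 33.9. They rose by 4.69 ± 0.071 and 4.24 ± 0.10 (limma adjusted p = 5.87e-09 and 4.13e-08). ABCA1, the cholesterol efflux pump, read 165, 133 and 143 against readings all under the floor in the WT-labelled arm, and was at least 14.7-fold higher (arm means 147 and -3.41, limma adjusted p = 3.75e-08). Among falls outside the cell cycle, ZBED2, a zinc finger protein, read 154, 166 and 146 against 1042, 1038 and 1028 and fell by 2.74 ± 0.068 (limma adjusted p = 6.59e-08). GAGE12J, a cancer-testis antigen of a family of near-identical copies that its probe may not tell apart, was at least 6.64-fold lower (arm means 0.319 and 66.5, limma adjusted p = 6.59e-08).

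A list of 5 genes was drawn from earlier results of these data because they separated the labels in untreated arrays, so their direction at 2 nM is not independent evidence. PROM1 (CD133) and CASP4, an inflammatory caspase, were on the KO-labelled arrays at 159, 158 and 159.8 and at 132, 131 and 134. Both were under the floor on all WT-labelled arrays, making them at least 15.9-fold and 13.2-fold higher (WT-labelled means 1.61 and 3.22, limma adjusted p = 5.87e-09 and 5.87e-09). NRIP1, a nuclear receptor corepressor, read 135, 124 and 127 against 7.82, 10.5 and 5.91 and rose by 3.66 ± 0.064 (limma adjusted p = 1.1e-08). CAMK2D, a calmodulin-dependent kinase, read 18.2, 16.4 and 19.8 against 127, 115 and 104 and fell by 2.67 ± 0.10 (limma adjusted p = 3.85e-07), though another of its probes gave -0.28. ZBED2 is the last of the 5.

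Both arms had received the drug, and the 4 genes tied to its target lay between -0.43 and 1.06 on the log2 scale. XPO1 itself read 1595, 1434 and 1568 against 2062, 2184 and 1934 and fell by 0.43 ± 0.075 (limma adjusted p = 0.0015). NGFR, a neurotrophin receptor known to rise on XPO1 inhibition, read 38.2, 40.5 and 47.1 against 19.6, 21.6 and 19.02 and rose by 1.06 ± 0.094 (limma adjusted p = 3.39e-05). SLC43A2, an amino acid transporter, was 0.67 ± 0.071 higher and ARRDC3, an arrestin-domain protein, -0.24 (limma adjusted p = 8.78e-05 and 0.0249). Of these 4 XPO1 inhibitor markers, ARRDC3 lost its call in the 26-array model and when replicate 1 of either label or WT-labelled replicate 2 was left out, and XPO1 and SLC43A2 lost theirs with slide as a random block. In the nuclear export and import machinery 12 of 28 were lower (42.9%) and 4 higher (14.3%), with a median of -0.17, beside 31.0% and 29.0% of all genes. KPNA2, an importin alpha that cycles with proliferation, read 249.6, 251 and 264 against 589, 676 and 852 and fell by 1.45 ± 0.13 (limma adjusted p = 2.93e-05). KPNA4, another importin alpha, fell by 1.00 ± 0.069 and NXT1, an mRNA export cofactor, by 0.74 ± 0.065 (limma adjusted p = 8.79e-06 and 3.04e-05), the former without a call under the slide block.

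Interferon-stimulated and antigen presentation genes were higher in 12 of 20 tested (60%, beside 29.0% of all genes) and lower in 1 (5%, beside 31.0%), with a median of 0.29. IFI35, an interferon-induced protein, read 31.6, 35.4 and 39.7 against 14.95, 13.8 and 11.7, HLA-B read 1508, 1505 and 1638 against 757, 769.6 and 732, and HLA-E read 1061, 1107 and 990 against 542, 481 and 525. Their arms stood apart by 1.40 ± 0.12, 1.04 ± 0.065 and 1.03 ± 0.075 (limma adjusted p = 2.28e-05, 5.09e-06 and 1.16e-05), and probes of the 2 class I antigen genes may read both, as they are close homologues. ATF4 and unfolded protein response genes were lower in 17 of 27 (63%, beside 31.0%) and higher in 2 (7.41%), with a median of -0.34. CTH, an enzyme of cysteine synthesis, read 61.03, 63.9 and 57.4 against 140.4, 118 and 129, and STC2, a secreted stress glycoprotein, read 149, 131 and 123 against 289, 297 and 259. CTH, STC2 and the transcription factor ATF5 fell by 1.09 ± 0.082, 1.07 ± 0.092 and 0.93 ± 0.075 (limma adjusted p = 1.45e-05, 2.87e-05 and 2.11e-05), but no call of the 3 held with slide as a random block. TGF-beta and BMP targets were lower in 8 of 11 (72.7%, beside 31.0%) and higher in none, with a median of -0.54. Without 1 gene that had an arm wholly at the floor, 7 of 10 were lower. BAMBI, a decoy receptor, read 923, 971 and 913 against 1688, 1847 and 1769 and fell by 0.92 ± 0.066, and SMAD7, the inhibitory SMAD, fell by 0.82 ± 0.076 (limma adjusted p = 1.04e-05 and 4.11e-05). CCN2, a matrix-associated growth factor, fell by 0.77 ± 0.091 (limma adjusted p = 0.000162) and lost its call in the 26-array model.

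The remaining lists were short and mixed in direction, and their shares are read beside the 29.0% higher and 31.0% lower of all genes. Hypoxia-induced genes were lower in 7 of 13 (53.8%) and higher in 3 (23.1%), with ADM, the vasodilator adrenomedullin, at 1.39 ± 0.08 and the demethylase KDM3A and the mitophagy receptor BNIP3L at -1.54 and -1.19 (limma adjusted p = 3.06e-06, 2.86e-05 and 2.75e-05). NF-kB targets were higher in 4 of 10 (40%) and lower in 1 (10%). NRF2 and glutathione genes were higher in 6 (40%) and lower in 7 (46.7%) of 15, with a median of -0.0197. The shares of higher genes in both lie near that of all genes, but the share of lower genes was below it for NF-kB and above it for NRF2. Of the 6 higher NRF2 genes, 2 had every WT-labelled array at the floor and passed the filter only through the other arm. Among the 13 others, 4 were higher (30.8%) and 7 lower (53.8%), with a median of -0.202. AKR1B10, an aldo-keto reductase, was at least 4.47-fold higher (arm means 44.7 and 4.09, limma adjusted p = 1.55e-07). NFKBIA, the NF-kB inhibitor, and SOD2, the mitochondrial superoxide dismutase, were at 0.62 and -0.59 (limma adjusted p = 0.000123 and 0.00071). Wnt targets were higher in 2 and lower in 2 of 6 (33.3% each way), close to the shares of all genes. Of the 2 lower, 1 had an arm wholly at the floor. AXIN2, the feedback inhibitor of the pathway, was at 229, 261 and 285 against 730, 732 and 677 (log2 difference -1.47 ± 0.09, limma adjusted p = 4.61e-06). Epithelial markers were higher in 5 of 9 (55.6%) and lower in 1 (11.1%), which was EPCAM, the adhesion molecule, at 2565, 2246 and 2543 against 2923, 3424 and 3505 (log2 difference -0.42 ± 0.093, limma adjusted p = 0.00485). With slide as a random block, ADM, KDM3A, BNIP3L, NFKBIA, SOD2, AXIN2, EPCAM and KRT8 were no longer called.

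To see how much of this stood between the labels before the drug, the 6 arrays were set beside the untreated arrays of the same slides in a model of all 26 arrays, whose larger spread widens the SE. Untreated, 1268 of 10738 genes were called (11.8%), 608 higher (5.66%) and 660 lower (6.15%) in the KO-labelled arm. Same-numbered untreated arrays of the labels deviated together from their group means. Unlike-numbered ones were not compared, and replicate 10 of both labels stood apart for several readings, so a pairing by number is not established. With the replicate number as a block 3028 genes were called, 1425 higher and 1603 lower, while slide as a random block left 217. Without replicate 10 of both labels, and with no block, 1613 were called. Among p53 targets 24 of 117 were higher and 2 lower, with a median of 0.14, and among G2/M genes 5 of 41 were lower. In the blocked fit these counts were 40 and 10 of the p53 targets and 12 of the G2/M genes. CDKN1A read 4031, 4542, 4276 and 4672 on the untreated KO-labelled arrays and 615, 636, 665 and 1016 on the WT-labelled ones. It thus differed by 2.61 ± 0.31 (limma adjusted p = 3.75e-06) already without drug, and MKX by 4.24 ± 0.20 (limma adjusted p = 9.27e-13). MDM2 was at 16.1, 14.2, 15.2 and 12.3 against 10.7, 9.27, 12.4 and 11.5, near the floor in both labels but higher under the KO label in each of the 4 same-numbered pairs. The difference of 0.37 ± 0.25 was not called in the unblocked model (limma adjusted p = 0.417) and was called with the replicate number as a block (0.37 ± 0.13, limma adjusted p = 0.0409). CENPA was at -0.088 ± 0.14 and was not called in either fit (limma adjusted p = 0.798, and 0.616 with the block).

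The label difference at 2 nM departed from that of untreated cells for 1645 genes (15.3%), 819 with a more positive (7.63%) and 826 with a more negative difference (7.69%). With replicate number as a block the count was 3272, with 1662 genes more positive and 1610 more negative. Among these were 93 p53 targets with a more positive and 41 G2/M genes with a more negative difference. That fit also paired the 2 nM arrays by number, although these did not deviate together. Of p53 targets, 72 of 117 had a more positive difference and 0 a more negative one, with a median of 1.21, and 40 of 41 G2/M genes a more negative one, with a median of -1.81. TP53I3 widened most among genes of a more positive difference, by 4.07 ± 0.53 on the log2 scale (limma adjusted p = 9.17e-06), with untreated readings of 82.1, 84.3, 84.7 and 197 and 35.5, 30.6, 31.9 and 79.8. SERPINB5 followed with 3.85 ± 0.32 (limma adjusted p = 2.14e-08), from untreated readings of 198, 169.5, 191 and 254 and 205, 214, 212 and 315 that overlapped between labels. ABCA1 and CEACAM1, a cell adhesion molecule, widened by 3.46 ± 0.36 and 3.40 ± 0.28, and CENPA and HJURP moved by -3.31 ± 0.22 and -2.75 ± 0.19. The 2 other genes with the most negative change had narrowed: RGS2, a regulator of G protein signalling, differed by 3.84 ± 0.30 untreated and 1.02 at 2 nM, and ADGRF1, an adhesion GPCR, by 3.75 ± 0.16 and 0.67. Of the genes called both untreated and at 2 nM, 911 had the same sign and 67 the opposite sign, and for the p53 targets these counts were 26 and 0.

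**Figure D3:**
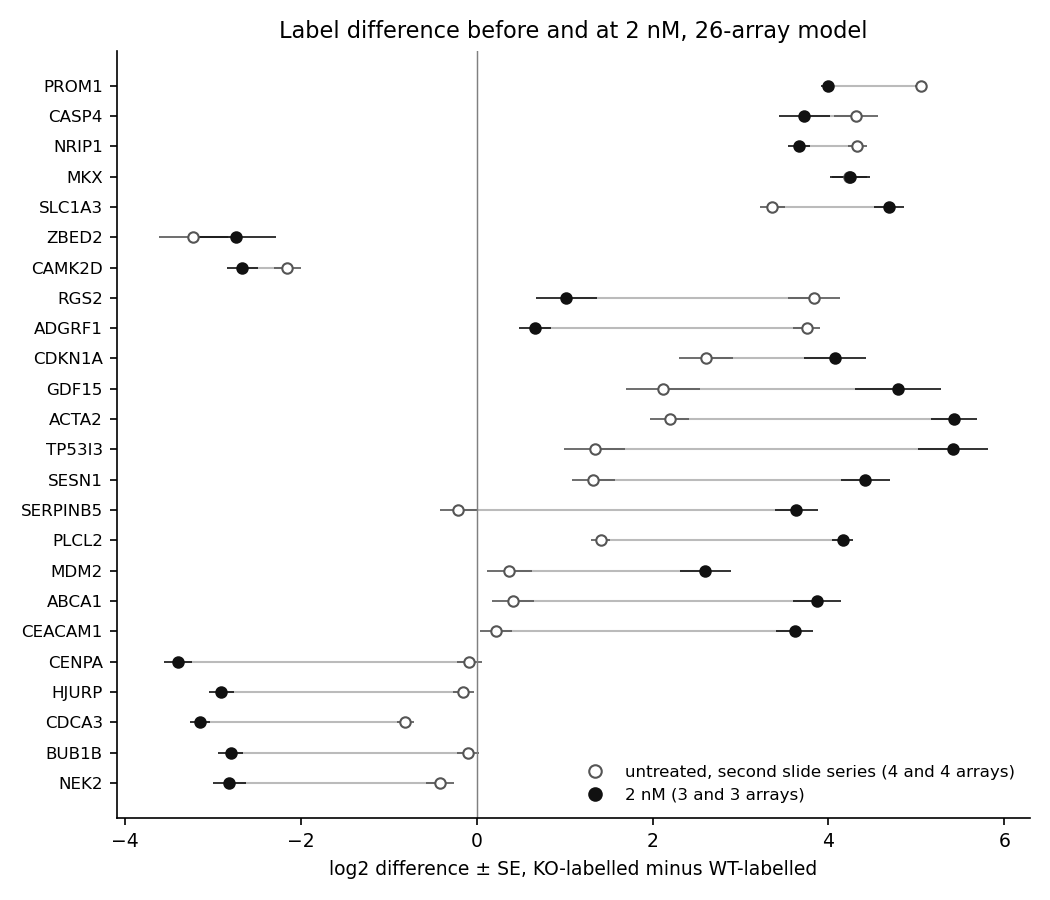
Log2 difference between labels (KO-labelled minus WT-labelled, ± SE from the 26-array model) in untreated arrays of the same slides (open, 4 and 4 arrays) and at 2 nM (filled, 3 and 3 arrays). MKX is as far from 0 untreated (4.24) as at 2 nM (4.24), and PROM1 (5.05 and 3.99) and NRIP1 (4.33 and 3.66) are farther from 0 untreated. TP53I3, SERPINB5 and CENPA stand apart mainly at 2 nM.

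At 20 nM the same labels ran the other way. The 20 nM arrays lay on other slides and share no array with the 2 nM comparison. At that dose 1706 of 10738 genes were called higher (15.9%) and 1520 lower (14.2%) in the KO-labelled arm. CDKN1A read 1659, 1751 and 1764 in the KO-labelled arm at 20 nM and 16769.6, 17617 and 18949 in the WT-labelled arm. GDF15 read 151, 154 and 162 against 4711, 4595 and 4185, and MDM2 read 11.96, 7.45 and 9.87 against 73.7, 64.8 and 54.97. All 3 were lower in the KO-labelled arm, with log2 differences of -3.36 ± 0.35, -4.85 ± 0.48 and -2.59 ± 0.29 (limma adjusted p = 1.95e-07, 9.65e-08 and 5.76e-07), so that the arm with high p53 targets at 20 nM was the one labelled WT. PROM1 turned in untreated arrays as well, and differed by 5.05 ± 0.066 on the slides of the 2 nM arrays (limma adjusted p = 6.21e-23). In untreated replicates 4 to 6 it differed by -4.82 ± 0.076 (limma adjusted p = 3.32e-21). Those arrays belong to the slide series of the 20 nM arrays but lay on other slides. Whether the labels of one slide series were exchanged was not tested, and the sign of each KO-labelled minus WT-labelled value depends on the labels as given. Of p53 targets, 85 of 117 were lower and 1 higher, with a median of -1.32, and 41 of 41 G2/M genes were higher, with a median of 1.62.

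**Figure D4:**
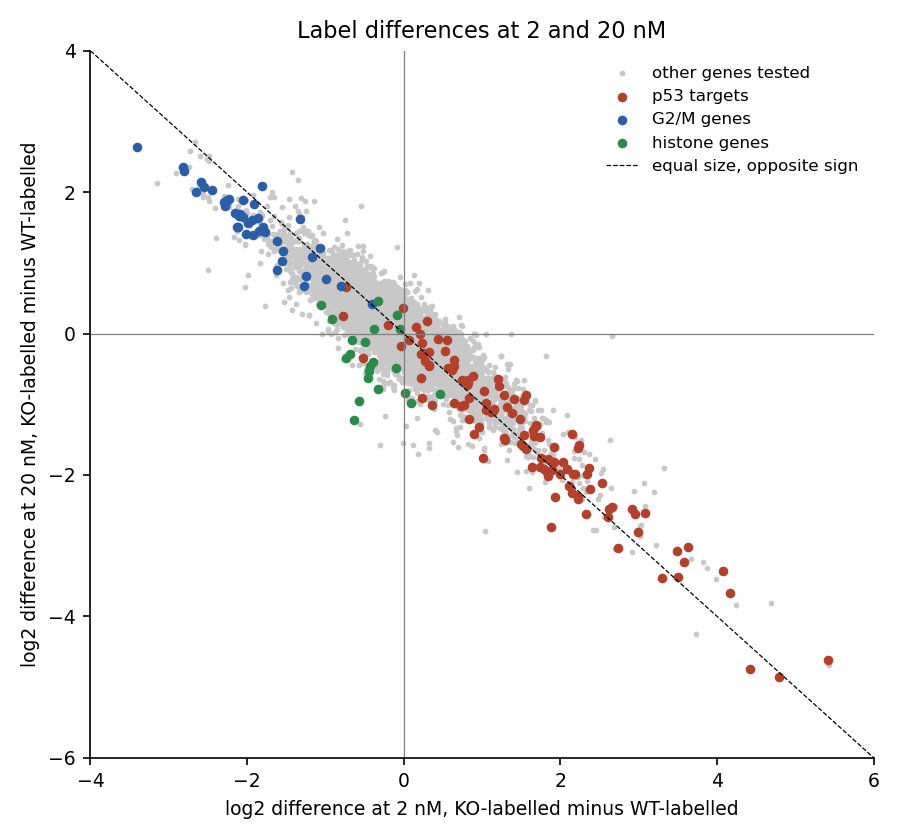
Log2 difference between labels (KO-labelled minus WT-labelled) at 2 nM, horizontal, and at 20 nM, vertical, for the 9713 genes tested at 2 nM. Most points follow the dashed line of equal size and opposite sign (r = -0.902 across genes). Of the histone genes (green), 12 of 21 have negative values on both axes.

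Across the 9713 genes, which are not independent replicates, the differences at 2 and 20 nM correlated at r = -0.902 (Spearman's rho -0.842). Calls at 2 nM were taken here from the fit of the 6 arrays and calls at 20 nM from the 26-array model. Of 2774 genes called at both doses (47.6% of the calls at 2 nM and 88.5% of those at 20 nM), 2757 had opposite signs and 17 the same sign. Each dose lay on its own slide series, so dose and slide series cannot be told apart in this contrast. Between 2 nM and untreated replicates 4 to 6, which had no drug, 1490 genes were called in both. Of them 1360 had opposite signs and 130 the same sign (r = -0.575 over all genes). The label difference departed between the 2 nM and 20 nM arrays for 4833 genes (45.0%), 2284 more positive (21.3%) and 2549 more negative (23.7%) at 2 nM. Among p53 targets 92 of 117 were more positive at 2 nM and 1 more negative. ACTA2, TP53I3, GDF15 and SESN1 led with 10.12 ± 0.37, 10.03 ± 0.57, 9.64 ± 0.68 and 9.17 ± 0.40, and CENPA, CAMK2D, GAGE12J and CDCA3 with -6.04 ± 0.23, -5.38 ± 0.25, -5.32 ± 0.26 and -5.28 ± 0.16 on the log2 scale (26-array model, limma adjusted p from 2.52e-16 for CDCA3 to 1.76e-10 for GDF15).

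Summarised per array, the mean log2 intensity of the 113 p53 targets was 8.054, 8.079 and 8.074 on the KO-labelled and 6.531, 6.53 and 6.512 on the WT-labelled arrays at 2 nM. At 20 nM it was 7.994 to 8.013 under the WT label and 6.533 to 6.54 under the KO label, and on the untreated arrays of the 2 nM slides 6.534 to 6.658 (KO) and 6.273 to 6.381 (WT). The G2/M mean over 41 genes was 7.275 to 7.358 on the KO-labelled arrays at 2 nM and 9.217 to 9.258 on the WT-labelled ones. These means describe the arrays, with no test.

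**Figure D5:**
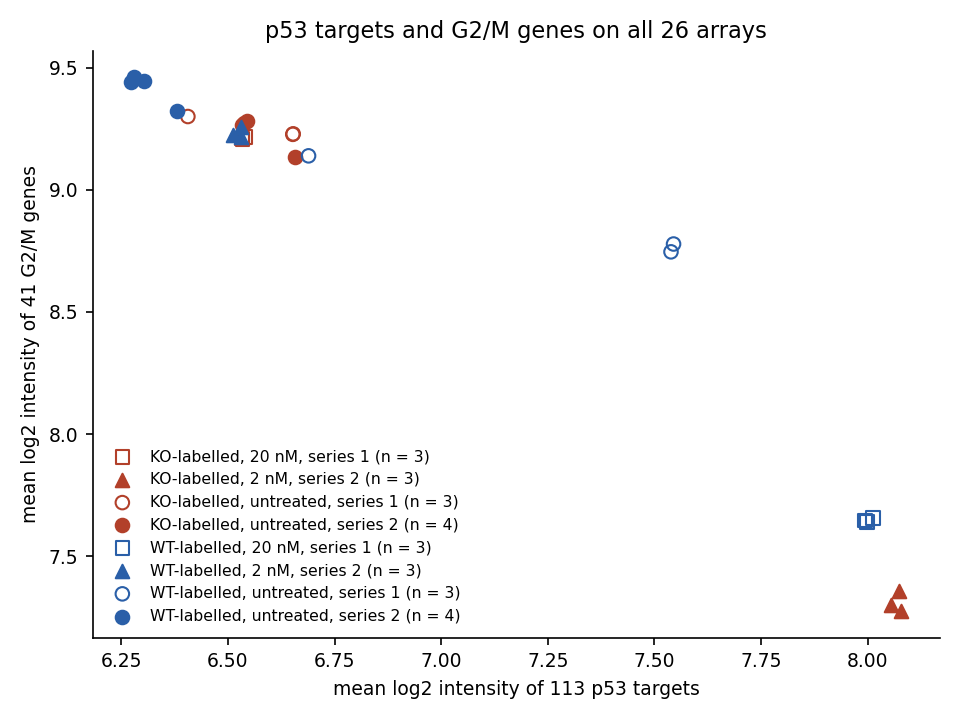
Mean log2 intensity of 113 p53 targets, horizontal, and of 41 G2/M genes, vertical, on all 26 arrays, with the symbol giving label, dose and slide series. The KO-labelled arrays at 2 nM (7.275 to 7.358 vertically) and the WT-labelled arrays at 20 nM lie at the lower right. The WT-labelled arrays at 2 nM lie at the upper left among most untreated arrays and the KO-labelled 20 nM arrays. WT-labelled untreated replicates 5 and 6 lie in between, at 7.539 and 7.545 horizontally and 8.746 and 8.778 vertically.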

How the data were processed

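RNA was extracted with Trizol and amplified with the TotalPrep kit of Illumina arrays, per the labels' protocols. The deposited table holds linear intensity values made by the authors with BeadStudio, per the submitters' processing notes (version, background correction and normalization: not given in the sources used here). Of its values 20.4% were below 0 and 49.7% at or under 10. Precision is limited by the number of arrays.

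Of 22177 probes 21101 had a gene symbol, and 20986 matched the RefSeq gene table by Entrez identifier. The probe with the highest mean over the 6 arrays stood for its gene. limma 3.58.1 (lmFit, eBayes; R 4.3.3, statmod 1.5.0) was fitted to log2 values of the 6 arrays, and a model of 8 cells (label, treatment, slide series) to all 26 arrays for differences between conditions. Genes were named by rule: CDKN1A, MDM2 and GDF15, the 10 largest changes each way with arms apart, up to 4 called members per p53 list and 3 per other list, the markers of XPO1 inhibition and of untreated labels, and the 4 largest differences of differences each way. Members, lists and tests were chosen with earlier results of these data known. Same-numbered untreated arrays of the labels deviated together (r 0.328 to 0.814 on the slides used), but 2 nM arrays did not (r -0.0455 to -0.0295). Unlike-numbered untreated arrays were not compared. Alternatives were other floors, filters, normalization, blocks, models and left-out arrays.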

Additional observations from a re-analysis of the deposited data

Results flagged for a closer look

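The label difference at 2 nM departed from that of untreated cells on the same slides for 1645 genes, by the contrast of differences in limma. The largest departures were TP53I3 (4.074), SERPINB5 (3.846), ABCA1 (3.46) and CEACAM1 (3.396) on the positive side of the log2 scale, and CENPA (-3.312), ADGRF1 (-3.088), RGS2 (-2.819) and HJURP (-2.752) on the negative side. Against 20 nM the difference departed for 4833 genes, led by ACTA2 (10.12), TP53I3 (10.03), GDF15 (9.642) and SESN1 (9.171), and by CENPA (-6.044), CAMK2D (-5.378), GAGE12J (-5.319) and CDCA3 (-5.276). Each dose lay on its own slide series, so a departure by dose cannot be told apart from one by slide series.

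In the groups of 4 untreated arrays, replicate 10 stood farther from its group than Dixon's criterion allows for 5 of the readings examined. CDKN1A read 1016 on WT-labelled replicate 10, GDF15 read 1081 on KO-labelled and 360.9 on WT-labelled replicate 10, CASP4 read 466.3 on KO-labelled replicate 10, and CAMK2D read 230.6 on WT-labelled replicate 10. The genes examined, under both labels, were CDKN1A, MDM2, GDF15 and the 5 that separated untreated labels in earlier results. Chance gives such a gap in about 1 in 20 groups. Readings of different genes come from the same arrays and are not independent, so the 5 cannot be set against that rate. Without replicate 10 of both labels, the departures from untreated cells numbered 2060.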

How the results depend on the processing

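Counts of genes apart at 2 nM ran from 4852 to 6022 under other floors, filters, normalization and variance models, and 6379 probes were called with each probe tested on its own. They came to 3663 with the spread of 26 arrays and 1788 with slide also a random block, whose estimated correlation was 0.336. p53 targets called higher ran from 75 to 102 of those tested in all settings. Departures from untreated cells ran from 1275 to 2060, except 3272 with a replicate block, and departures from 20 nM from 3508 to 6306. Leaving out 1 array gave 5143 to 5574 genes, 96 to 99 p53 targets, 1334 to 1920 departures from untreated cells and 4439 to 4608 from 20 nM. Calls in untreated cells, alternatives for which were chosen after seeing the data, came to 3028 with a replicate block, 217 with slide as a random block and 881 to 1602 when 1 array was left out. The replicate block gave 5638 genes at 2 nM. Since the numbers of the 2 nM arrays did not deviate together, they were not taken as pairs in the main comparison. The counts of 3272 and 6306, both from a replicate block, do pair them. The median of NRF2 and glutathione genes (-0.0197) turned to 0.00826 without WT_2nM replicate 3 and to 0.0235 without KO_2nM replicate 2, in a range of -0.0699 to 0.0235 when 1 array was left out. CENPA in untreated cells, not called (-0.088), turned to 0.00508 without KO_untreated replicate 10 (-0.124 to 0.00508 when 1 array was left out). List medians moved by more than the spread between replicates in 93 of the checks, by 0.069 at the median and at most by 1.07, from 3.66 to 2.59 for the 5 genes that separated untreated labels with a pseudocount of 16. No other named gene changed sign, and a named gene lost its call in 50 checks and kept its side of the threshold in 1565. The fibroblast list had no gene left above a mean intensity of 30. Where several probes of a gene passed (949 genes), 24 genes had probes called in opposite directions. Values at the floor do not vary, so the SE of the 229 called genes with an arm there may be too small.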

Other observations

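Called in the same direction at 2 and 20 nM were 17 genes, picked out after their values were seen, and 10 of them are core histone genes, all lower in the KO-labelled arm at both doses. H3C2 was at -0.63 at 2 nM and -1.22 at 20 nM, H4C14 at -0.57 and -0.95, and H3C1 at -0.66 and -0.44 on the log2 scale (limma adjusted p = 0.000241, 0.000246 and 0.00292 at 2 nM). Several were near the floor of 10 at 2 nM: arm means, KO-labelled first, were 8.38 and 15.5 for H3C2 and 12.3 and 19.3 for H3C1. H3C14 (10.8 and 13.7) and H2BC17 (12.1 and 16.3) lay there too. The smallest histone change of the 10 at 2 nM was H4C12 at -0.30 (limma adjusted p = 0.0161). Over the histone list, 14 of 21 were lower at 2 nM (31.0% of all genes) and 13 of 24 at 20 nM (14.2% of all genes). The medians were -0.437 and -0.432, while the p53 and G2/M lists turned sign between the doses. The other genes of the 17 were CDKN2A, the cell cycle inhibitor p16 and ARF locus, HES4, KRTAP4-7, RCAN1, TARDBP and URB1-AS1, all lower, and MDS1, higher at both doses.

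Calls were spread over the autosomes and the X chromosome. The share of tested genes higher in the KO-labelled arm ran from 19.2% on chromosome 13 to 36.2% on chromosome 22, and chromosome medians of the log2 difference from -0.125 to 0.0703.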
